A study of Mus musculus with 4 samples.

Results

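Integrins are surface proteins through which blood cells hold on to matrix and to each other, and tetraspanins are membrane proteins that gather integrins and other proteins. Of both families, 52 genes were compared between leukemic and untransformed mouse erythroid cells. They were chosen by symbol from the gene table of the array and stand for 18 integrin α subunits, 8 integrin β subunits and 26 tetraspanins, out of 19938 genes that had a probe set of their own. MEL cells are murine erythroleukemia cells, malignant red cell precursors. The cultures used here came from 1 clone, DS19, stably carrying Gata-1 fused to the ligand-binding part of the estrogen receptor (ER), and grew in DMEM with fetal serum, glutamine and puromycin. ES-EP are normal erythroid progenitors grown out of embryonic stem cells. Their StemPro34 medium held erythropoietin (Epogen), stem cell factor, dexamethasone, IGF-1 and β-mercaptoethanol. Both cell types were proliferating, 2 cultures of each were hybridized (A and B), and cell type, growth factors and medium changed together and cannot be told apart.

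An integrin is a pair of 1 α and 1 β subunit. The α chain largely sets which ligand is bound, such as laminin, collagen, proteins with an RGD sequence or the adhesion molecules of other cells, and both tails reach into the cytoplasm, where talin and kindlins switch the pair on. Tetraspanins are small proteins that cross the membrane 4 times and gather integrins, proteases and immunoglobulin superfamily proteins into membrane domains. In the marrow, erythroid precursors are held to macrophages and to fibronectin through α4β1 and α5β1 integrins, and red cells lose both as they mature. The pair αIIbβ3 is the fibrinogen receptor of platelets and megakaryocytes, and β2 integrins are the main adhesion receptors of white blood cells.

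Values below are log2 signals as deposited, given for MEL A, MEL B, ES-EP A and ES-EP B, and a difference is MEL minus ES-EP with its SE. The SE is limma's, which weighs a gene's own spread (2 degrees of freedom) with that of all genes (8.196). Signals of different genes come from different probes, and their heights were not compared. A gene is said to be called where its difference passed limma's test at a Benjamini-Hochberg adjusted p of 0.05 over all genes. Because the array gives every gene some signal, the 95th percentile of 1027 olfactory receptor genes, which belong to nasal neurons, was taken as a mark of background (5.19 in MEL and 5.56 in ES-EP, called the olfactory level here). The median difference of all genes was -0.15, and that of the olfactory receptor genes was -0.20, of which 48.9% were called. Of 9 erythroid markers measured 0 were at or below the olfactory level, and 1 was called higher and 7 lower in MEL. Widest among the lower ones were Slc4a1 (44.3-fold higher in ES-EP), Epb42 (9.32-fold) and Alas2 (8.69-fold). The higher one was Gata1 (2.21-fold), and whether the Gata-1 fusion of the MEL line adds to it was not tested. In MEL and in ES-EP 5 of 6 embryonic stem cell markers and 5 of 8 lymphocyte markers did not exceed the olfactory level. In each of these lists 0 were called higher, and 4 and 3 lower. After rescaling 2 to 3 and 1 to 2 were called lower, and 1 embryonic stem cell marker higher. Of 9 fibroblast and endothelial markers 4 did not exceed the olfactory level, 2 were called higher and 5 lower. Those 5 lower calls were 2 without ES-EP replicate A or MEL replicate B and 1 or 2 after rescaling. In RNA of a whole culture, fewer cells with a transcript and less RNA per cell cannot be told apart. The labels do not say how separate the 2 cultures of a cell type were. The p-values therefore cover no more than the spread between 2 arrays of a cell type, largely borrowed from all genes.

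Several members differed widely between the cell types, in both directions. The tetraspanin genes Cd9 and Tspan13 and the integrin genes Itga6, Itga2b and Itgb2 were the members with the largest differences toward MEL, and Tspan12, Itgb3, Itgb7 and Tspan8 those with the largest toward ES-EP. Of the 52 members 36 were called, 13 higher and 23 lower in MEL, against 63.8% of all genes called, 20.5% higher and 43.2% lower. A 2-fold difference was reached by 14 called members, 6 higher and 8 lower in MEL, against 10.0% of all genes (5.72% higher and 4.27% lower). Among the 38 members above the olfactory level in at least 1 cell type 28 were called, 13 higher and 15 lower in MEL, where 68.7% of such genes were (28.7% higher and 40.0% lower). The 14 members of 2-fold or more, 6 higher and 8 lower, were all among these 38, against 14.8% of such genes (8.61% higher and 6.16% lower). The median difference of the 52 members was -0.14, and the median size of their differences, regardless of sign, was 0.36 against 0.32 over all genes.

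The count of lower calls rested on the scaling of the arrays. It was 13 after quantile normalization, 14 after median centring and 12 after cyclic loess, beside 17, 16 and 17 higher, and these rescalings moved the median of all genes to -0.03, -0.01 and -0.00. Without MEL replicate A it was 15. The 14 members of 2-fold or more kept their call and direction under every alternative that tested them.

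**Figure D1:**
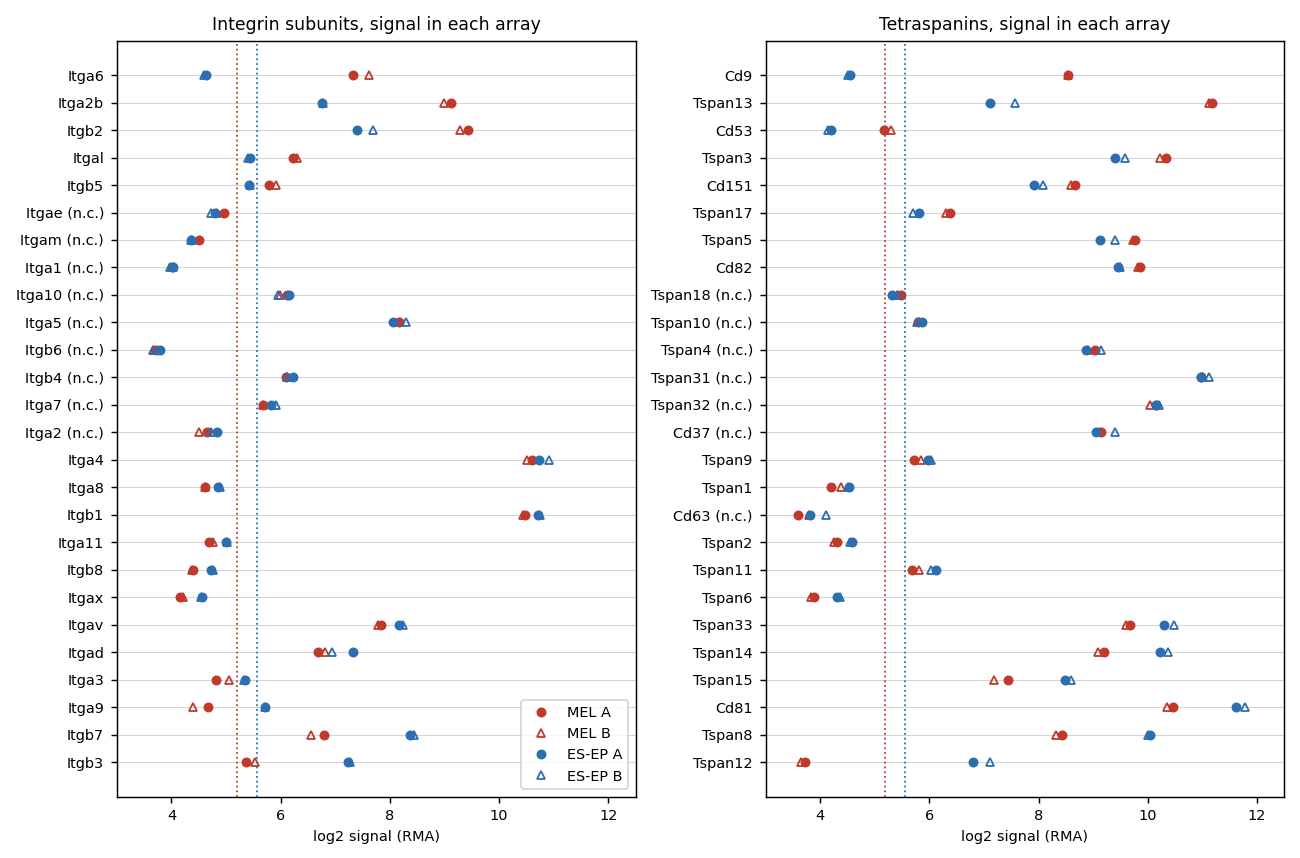
Log2 signal of each member in each array, for 26 integrin subunits (left) and 26 tetraspanins (right), sorted by difference, drawn red for MEL and blue for ES-EP, replicate A filled and replicate B open. Dotted lines are the olfactory levels of 5.19 (MEL, red) and 5.56 (ES-EP, blue), n.c. marks members that were not called, and Cd9 lay at 8.53 and 8.54 in MEL against 4.55 and 4.52 in ES-EP.

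Laminin receptors differed through 1 subunit. Itga6 encodes α6, which pairs with β1 or β4 to bind laminin and is found on stem cells, platelets and epithelia. Its signals were 7.33 and 7.62 in MEL against 4.63 and 4.59 in ES-EP, so that all ES-EP values lay below the olfactory level. The difference was 2.86 ± 0.10 (adjusted p = 2.49e-09), a 7.26-fold gap whose size rests on background. Neither of the other laminin-binding subunits stood far above background. Itga3 stayed under the olfactory level everywhere, and its called difference of -0.40 ± 0.09 was not read as a direction at that level. Itga7, just above the olfactory level, was not called (-0.19 ± 0.08, adjusted p = 0.0613). Of the β partners of α6, Itgb4 was not called (-0.07 ± 0.08, adjusted p = 0.499), and Itgb1 is described next.

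Receptors of fibronectin and VCAM-1, the classic pairs of early erythroid cells, changed little. Itgb1 encodes β1, the shared partner of most matrix-binding α chains, and gave 10.47 and 10.44 in MEL against 10.72 and 10.74 in ES-EP. Its difference of -0.27 ± 0.08 was called (adjusted p = 0.0111), but not after median centring (adjusted p = 0.174) or without MEL replicate B (0.0695). Itga4 encodes α4, and stood at 10.60 and 10.52 in MEL against 10.73 and 10.91 in ES-EP (-0.26 ± 0.09, adjusted p = 0.0253). That call ended under all 3 rescalings (adjusted p from 0.0612 with cyclic loess to 0.267 with median centring) and without MEL replicate A (0.0679), MEL replicate B (0.157) or ES-EP replicate B (0.153). Itga5, encoding the α5 chain of the fibronectin receptor, was not called. Its signals of 8.17 and 8.18 in MEL lay between those of 8.07 and 8.30 in ES-EP, a difference of -0.00 ± 0.09 (adjusted p = 0.970). Itga9, a relative of α4 that also pairs with β1, was 2.27-fold higher in ES-EP (4.67 and 4.39 in MEL, 5.71 and 5.71 in ES-EP). The MEL values were below the olfactory level and the ES-EP values just above it, so this fold too rests on background.

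The 2 subunits of the platelet fibrinogen receptor went opposite ways. Itga2b encodes αIIb (CD41), also a mark of early blood progenitors. It gave 9.12 and 8.996 in MEL against 6.75 and 6.77 in ES-EP, a 4.92-fold difference toward MEL (2.30 ± 0.08, adjusted p = 2.91e-09). Itgb3 encodes β3, the partner of both αIIb and αv. It gave 5.36 and 5.53 in MEL against 7.23 and 7.27 in ES-EP, 3.49-fold higher in ES-EP (-1.80 ± 0.09, adjusted p = 2.98e-08), with MEL only just above the olfactory level. For neither subunit did the values of the 2 cell types overlap. Itgav, whose αv chain can pair with β1, β3, β5, β6 or β8, was 1.31-fold higher in ES-EP (7.84 and 7.78 against 8.16 and 8.23, adjusted p = 0.0019). Itgb5, encoding another αv partner, was 1.34-fold higher in MEL, against a background signal in ES-EP (5.79 and 5.91 against 5.42 and 5.44).

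Markers of megakaryocytes were counted beside both subunits. Of 11 listed, 6 were measured. Of these 5 were called higher in MEL, where 20.5% of all genes were, and 1, Vwf, lower (-0.22). The counts were 5 and 0 after each rescaling and with a replicate block. They were 4 and 0 with Holm's adjustment and with a test against a 1.2-fold difference. The higher ones were led by Pf4, a platelet granule chemokine (31.2-fold, against background in ES-EP), and Treml1 (2.43-fold). Ppbp did not exceed the olfactory level in any array. The summed linear signal of the list was 1459 and 1385 in MEL against 562 and 577 in ES-EP. The part of such cells in the Itga2b result was not tested.

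Leukocyte integrins differed mainly through their β subunits. Itgb2 encodes β2 (CD18), which all of αL, αM, αX and αD need to reach the surface. It gave 9.42 and 9.29 in MEL against 7.39 and 7.70 in ES-EP, 3.51-fold higher in MEL (1.81 ± 0.11, adjusted p = 1.63e-07). Itgal, encoding αL of the receptor LFA-1, was 1.80-fold higher in MEL, with 6.22 and 6.31 against values below the olfactory level in ES-EP (5.43 and 5.40). Of the 5 leukocyte α genes 1 was called higher and 2 lower in MEL, but these counts were 3 and 1 after quantile normalization and after median centring, and 3 and 0 after cyclic loess. Itgam and Itgae, the 2 that gained a call under each rescaling, stayed under the olfactory level in all arrays as deposited and were not called there (0.09 ± 0.08 and 0.14 ± 0.08), and Itgax was below it too (-0.36 ± 0.08). Itgad gave 6.68 and 6.81 in MEL against 7.33 and 6.94 in ES-EP (-0.39 ± 0.12, adjusted p = 0.0158). Its call ended with median centring (adjusted p = 0.136), cyclic loess (0.0972) and without ES-EP replicate A (0.129), MEL replicate A (0.144) or MEL replicate B (0.0628). The other probe set of Itgad was not called when every probe set was fitted (-0.20, adjusted p = 0.0685). Itgb7 encodes β7, which joins α4 in the gut homing receptor and αE in mucosal T cells, and is also carried by mast cell progenitors. It was 3.31-fold higher in ES-EP (6.79 and 6.56 in MEL, 8.37 and 8.43 in ES-EP, -1.72 ± 0.10, adjusted p = 8.83e-08).

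Markers of mast cells were counted beside Itgb7. Of 8 mast cell markers 7 were called lower in MEL and 0 higher, where 43.2% of all genes were called lower, and the lower count was 6, 6 and 5 after quantile normalization, median centring and cyclic loess. The calls above background included Ms4a2, the IgE receptor β chain, 137-fold (against background in MEL) and Hdc, which makes histamine, 3.92-fold higher in ES-EP. Of the lower calls 4 were of granule protease genes that did not exceed the olfactory level in any array (Mcpt4, Cma1, Tpsab1 and Cpa3), and Fcer1a, also below it, was not called. The linear signal summed over the probe sets of all 8 was 308 and 296 in MEL against 3065 and 2809 in ES-EP. Ms4a2 and Hdc made up 2876 and 2619 of the ES-EP sums, and the other 6 summed to 131 and 125 in MEL against 189 and 190.03 in ES-EP. Of 10 macrophage and granulocyte markers 1 was called higher and 4 lower in MEL, and 6 did not exceed the olfactory level in either cell type. The lower count was 2 without ES-EP replicate B and after each rescaling. The one called higher was the IgG receptor gene Fcgr1, 4.18-fold higher in MEL against background. Whether any of these moved the integrin values was not tested.

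Collagen receptors were mostly near background. Itga1, Itga2 and Itga11 stayed under the olfactory level in all arrays, and Itga10 showed no called difference (0.00 ± 0.09, adjusted p = 0.986). Itga8, Itgb6 and Itgb8, which take part in RGD-binding pairs, were also below it in both. Differences of these low members ran from -0.35 to 0.02.

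**Figure D2:**
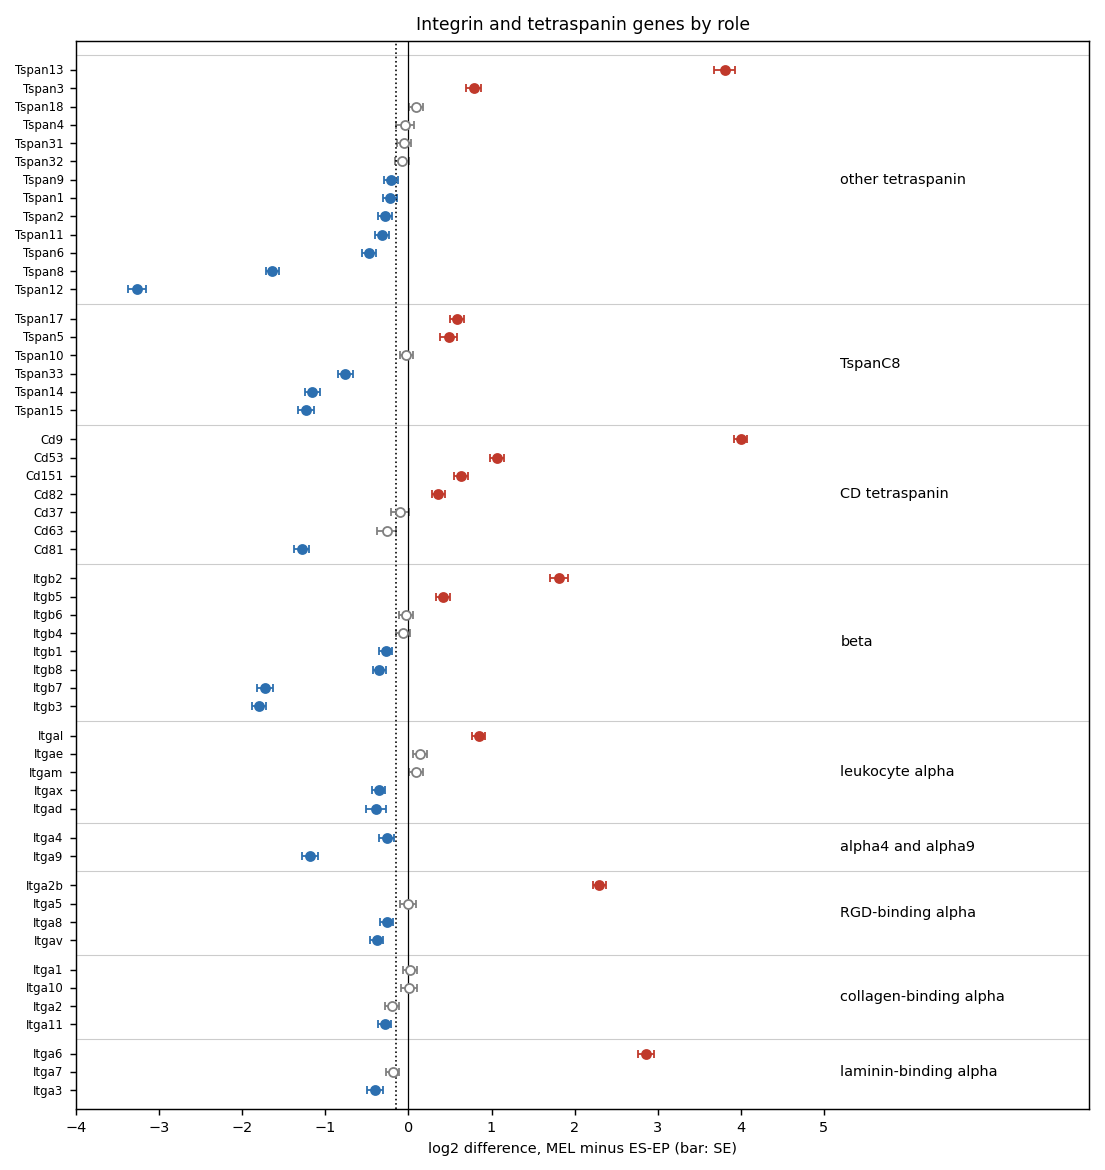
Difference in log2 signal between MEL and ES-EP (MEL higher to the right) for the 52 members with its SE, grouped by role. Red and blue points were called, higher and lower in MEL, open gray points were not, the dotted line is the median of all genes (-0.15), and values ran from -3.27 for Tspan12 to 4.001 for Cd9.

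Among tetraspanins known by CD numbers, Cd9 and Cd81 moved apart. Both encode close relatives that bind the immunoglobulin superfamily proteins EWI-2 and EWI-F. Cd9, also a platelet protein, gave 8.53 and 8.54 in MEL against 4.55 and 4.52 in ES-EP, where it lay below the olfactory level. The difference of 4.001 ± 0.08 (adjusted p = 3.33e-11) was the largest of the 52 in either direction, 16.01-fold, and its size rests on background. Cd81 gave 10.47 and 10.35 in MEL against 11.62 and 11.78 in ES-EP, 2.44-fold higher in ES-EP (-1.29 ± 0.09, adjusted p = 6.08e-07). Of the remaining 5, Cd151, which binds laminin-type integrins tightly, was 1.55-fold higher in MEL (8.66 and 8.59 against 7.91 and 8.07). Cd82, a suppressor of cell motility, was 1.28-fold higher in MEL (9.85 and 9.82 against 9.46 and 9.50). Cd53, a tetraspanin of white blood cells, was 2.09-fold higher in MEL, with 5.17 and 5.29 against 4.20 and 4.14. These MEL values lay around the olfactory level and the ES-EP values below it.

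The other CD-numbered members were not called. Cd37, also a leukocyte tetraspanin, gave 9.14 and 9.11 in MEL, inside the ES-EP pair of 9.05 and 9.39 (-0.10 ± 0.11, adjusted p = 0.449). Without ES-EP replicate A it was called lower in MEL (-0.27, adjusted p = 0.039). The probe set of Cd63, a protein of late endosomes and lysosomes found in nearly all cells, gave 3.59 and 3.79 in MEL against 3.81 and 4.10 in ES-EP. All 4 values were below the olfactory level, so that whether this probe set measures the transcript could not be told, and the difference of -0.26 ± 0.11 was not called (adjusted p = 0.0588), except without ES-EP replicate A (0.0154), with a replicate block (0.0183) and with a robust variance trend (0.0448).

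The TspanC8 tetraspanins, which bind the cell surface protease ADAM10 and steer it to its substrates, were split. Tspan15 and Tspan14 were higher in ES-EP by 2.35-fold and 2.23-fold. Tspan15 gave 7.43 and 7.18 in MEL against 8.49 and 8.59 in ES-EP (adjusted p = 1.95e-06), and Tspan14 gave 9.19 and 9.09 against 10.23 and 10.36 (adjusted p = 1.15e-06). Tspan33, a member first described in erythroblasts, was 1.69-fold higher in ES-EP (9.67 and 9.60 against 10.30 and 10.48, adjusted p = 3.89e-05). Toward MEL, Tspan17 was 1.501-fold higher (6.37 and 6.30 against 5.80 and 5.70) and Tspan5 1.40-fold (9.77 and 9.72 against 9.13 and 9.40). Tspan10 was not called (-0.03 ± 0.08, adjusted p = 0.795). The count of 2 higher and 3 lower among 6 was the same under each of 3 rescalings. It was 1 and 3 with a test against a 1.2-fold difference, and 0 and 2 with Holm's adjustment. Adam10 itself was not called (10.72 ± 0.03 in MEL and 10.87 ± 0.02 in ES-EP, SD, n = 2, adjusted p = 0.119).

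Outside these groups, 3 tetraspanins stood out. Tspan13 gave 11.17 and 11.11 in MEL against 7.11 and 7.56 in ES-EP, 14.0-fold higher in MEL (3.81 ± 0.13, adjusted p = 1.63e-09). Both levels were well above the olfactory level, so this gap did not rest on background. Tspan12, which takes part in norrin and Frizzled-4 signaling in blood vessels of the eye, lay the other way, at 3.71 and 3.64 in MEL against 6.79 and 7.11 in ES-EP. It was 9.66-fold higher in ES-EP (-3.27 ± 0.11, adjusted p = 1.22e-09), against background in MEL. Tspan8, a tetraspanin of epithelia and of many carcinomas, was 3.11-fold higher in ES-EP (8.43 and 8.32 against 10.03 and 10.00, adjusted p = 4.05e-08). Tspan3 was 1.73-fold higher in MEL (10.33 and 10.23 against 9.40 and 9.58).

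The rest of the tetraspanins differed little. Tspan31, Tspan32 and Tspan4 had differences of -0.05, -0.08 and -0.04 with SEs of 0.09, 0.08 and 0.11, and were not called. Tspan32 is a gene of blood cells. Tspan18 was not called either (0.09 ± 0.08), but was called higher in MEL after each rescaling (adjusted p = 0.00521 to 0.0263). Tspan11 and Tspan9 were called lower in MEL (-0.32 and -0.21), but neither under any of the 3 rescalings, and Tspan11 was not called without MEL replicate A (adjusted p = 0.0757). Tspan9 lost its call whichever array was left out (adjusted p = 0.0574 to 0.260). Tspan1, Tspan2 and Tspan6 stayed under the olfactory level in all arrays and were called lower in MEL (-0.22, -0.28 and -0.48). Tspan6 kept its call under each of the 3 rescalings, and Tspan1 and Tspan2 under none.

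**Figure D3:**
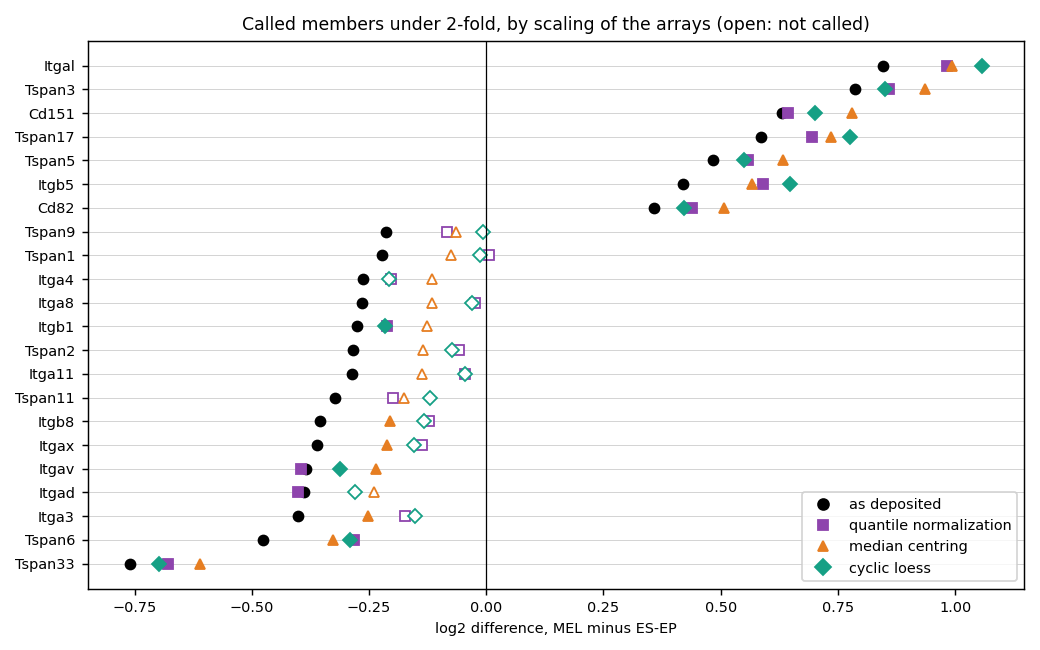
Difference in log2 signal, MEL less ES-EP, of the 22 called members under 2-fold, as deposited and after quantile normalization, median centring and cyclic loess. Filled symbols were called and open ones were not. The 7 members higher in MEL stayed called, and 12 of the 15 lower ones lost the call in at least 1 rescaling.

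To set sequence beside these values, the 250 bases before the transcription start of each gene were searched on both strands for GAGGAAG, which holds the GGAA core bound by PU.1 and other ETS factors, and for the GATA-type words AGATAA and TGATAA. RefSeq promoter entries were found for 43 members, of which 8 had several starts. Every listed start was searched, and a gene counted as holding a word if any of its windows did. GAGGAAG or its complement was present in 13 of them (30.2%), against 12.0% of 27025 genes, AGATAA in 3 (6.98% against 11.4%) and TGATAA in 1 (2.33% against 9.21%). The 27025 are all genes with a promoter entry and were not limited to the genes of the array. The words were chosen after expression was known, overlaps between them were not counted separately, and a match is a description of letters, not a bound site. Of the 13 members with GAGGAAG 2 were called higher and 5 lower in MEL, and of the 30 without it 8 and 16. These 4 promoters are shown for the 2 members of 2-fold or more that hold the word, which lie on opposite sides of the comparison, and for the 2 with the largest differences toward MEL, which hold none of the 3 words. Each is given 5′ to 3′ on the gene's strand (all minus) in GRCm38.p6, ending at the base before the start, with GAGGAAG in capitals.
Itga2b (chr11:102469884-102470133): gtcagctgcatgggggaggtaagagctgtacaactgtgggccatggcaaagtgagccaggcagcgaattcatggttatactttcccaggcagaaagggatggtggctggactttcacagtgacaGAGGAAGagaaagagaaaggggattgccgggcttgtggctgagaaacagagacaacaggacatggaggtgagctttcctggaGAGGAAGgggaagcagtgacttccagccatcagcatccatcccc
Tspan14 (chr14:40966897-40967146): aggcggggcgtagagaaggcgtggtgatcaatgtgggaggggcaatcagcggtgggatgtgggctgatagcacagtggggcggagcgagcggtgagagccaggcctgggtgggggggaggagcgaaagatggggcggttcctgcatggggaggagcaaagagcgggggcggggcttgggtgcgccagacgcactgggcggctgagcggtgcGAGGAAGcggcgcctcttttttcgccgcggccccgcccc
Cd9 (chr6:125494761-125495010): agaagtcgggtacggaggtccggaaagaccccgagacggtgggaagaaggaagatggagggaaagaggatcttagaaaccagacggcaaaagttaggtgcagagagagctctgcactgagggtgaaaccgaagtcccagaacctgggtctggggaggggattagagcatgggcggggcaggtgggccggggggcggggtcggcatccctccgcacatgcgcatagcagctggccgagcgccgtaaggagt
Tspan13 (chr12:36042479-36042728): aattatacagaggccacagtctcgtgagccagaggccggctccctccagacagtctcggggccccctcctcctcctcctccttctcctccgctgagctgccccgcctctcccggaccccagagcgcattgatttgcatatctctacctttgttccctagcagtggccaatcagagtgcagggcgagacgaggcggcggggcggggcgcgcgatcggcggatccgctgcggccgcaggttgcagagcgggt
The Itga2b window held GAGGAAG at 126 and 44 bases before the start and that of Tspan14 at 39 bases before it, with Itga2b higher and Tspan14 lower in MEL.

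Some members are neighbors on a chromosome, and their differences are set side by side here. On chromosome 7, Tspan32 and Cd81 have no protein-coding gene between them, and differed by -0.08 (not called) and -1.29. Cd151 and Tspan4, with 1 gene between them, differed by 0.63 and -0.04 (not called). Itgam, Itgax and Itgad follow each other on the same chromosome, with 0.09 (not called), -0.36 and -0.39. Tspan18 and Cd82 on chromosome 2 differed by 0.09 (not called) and 0.36. Tspan11 and Tspan9 on chromosome 6 differed by -0.32 and -0.21, and Itga2 and Itga1 on chromosome 13 by -0.20 and 0.02, neither of them called.

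Lists of genes that work with integrins and tetraspanins were counted the same way, beside 20.5% of all genes called higher and 43.2% lower. Of 22 measured activators and regulators 9 were called higher and 3 lower in MEL (5 and 3 without MEL replicate A), and their median difference was 0.09. Rasgrp2 and Rassf5, which activate and relay the small GTPase Rap1 upstream of talin, were 11.7-fold (against background in ES-EP) and 7.31-fold higher in MEL, Rassf5 from an ES-EP signal just above the olfactory level (5.57). Itgb1bp1 (ICAP-1), which competes with talin for the β1 tail, and the Rap1 effector Apbb1ip (RIAM) were higher in ES-EP by 2.07-fold and 1.86-fold. The talin gene Tln1 was 1.23-fold higher in MEL. Tln2, the other talin gene, was called the other way, 1.51-fold higher in ES-EP (-0.59 ± 0.08), against background in MEL. The blood cell kindlin Fermt3 was not called (0.20 ± 0.09, adjusted p = 0.0812).

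Of 27 measured adhesion adaptors and kinases 14 were called higher and 6 lower in MEL (9 and 5 without MEL replicate B), with a median of 0.23. Parvg, the parvin of blood cells that joins integrin-linked kinase to actin, was 28.8-fold higher in MEL and the actin crosslinker Actn1 6.11-fold, both against background in ES-EP. Hic1 was 3.46-fold higher in MEL, but encodes a transcriptional repressor and is no adaptor in spite of its place in the list. The 27 genes, the 14 higher calls and the median of 0.23 include it. Tns3, a tensin, was 3.09-fold higher in ES-EP.

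Of 36 measured ligands and counter-receptors 5 were called higher and 19 lower in MEL (median -0.21), but after rescaling these counts were 7 and 12 (quantile), 7 and 11 (median centring) and 8 and 10 (cyclic loess), and without MEL replicate B they were 4 and 11. In both cell types 14 of the 36 were at or below the olfactory level, among them Fn1, Vcam1, Tnc and Fgg, all called lower. Icam2, a ligand of LFA-1, was 3.10-fold higher in MEL and F11r, also a ligand of LFA-1, 4.45-fold (against background in ES-EP). Ltbp1, which stores latent TGF-β in the matrix, and the laminin chain Lama5 were higher in ES-EP by 3.68-fold and 2.57-fold. Of 23 measured tetraspanin partners 1 was called higher and 13 lower in MEL (median -0.27). In both cell types 7 of the 23 were at or below the olfactory level, among them Ptgfrn, Cr2, Emb and Cd36, all called lower. Sdcbp (syntenin), which binds the tail of CD63, the membrane linker Ezr and Adgrg1 (GPR56), a partner of CD81 and CD9, were higher in ES-EP by 3.13-fold, 2.58-fold and 2.05-fold. The gene called higher was Hbegf, a growth factor precursor that binds CD9, 3.20-fold higher in MEL against background in ES-EP.

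**Figure D4:**
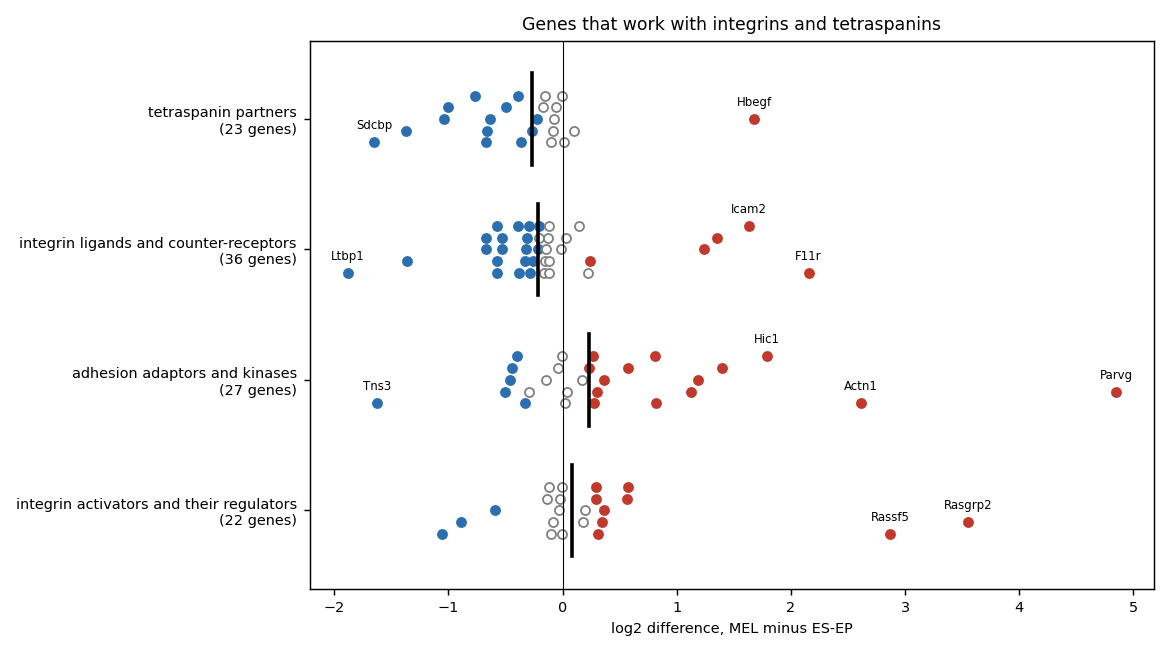
Difference in log2 signal, MEL less ES-EP, for the measured genes of 4 lists of genes that act with integrins and tetraspanins, with the number of genes in parentheses. Red and blue points were called, higher and lower in MEL, and open points were not. Black bars are medians, from -0.27 for tetraspanin partners to 0.23 for adhesion adaptors (Hic1, which is no adaptor, included).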

How the data were processed

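Total RNA of 2 MEL and 2 ES-EP cultures was hybridized to Affymetrix Mouse Gene 1.0 ST arrays. The authors normalized the CEL files by RMA in GeneSpring GX (version not given in the sources used here; build mm9 in the submitters' processing notes) and deposited log2 signals, 1 column per array. The array medians lay between 5.67 and 5.84, and the number of arrays limits the precision.

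Of 35557 probe sets, 21789 had a single symbol, 1621 several and 12147 none listed here. Where a gene had more than 1 probe set the brightest on average stood for it, and the 19938 genes were fitted with limma 3.58.1 in R 4.3.3 (lmFit and eBayes, two-sided, no block, Benjamini-Hochberg). An exact permutation of 2 against 2 arrays cannot go below p = 0.333. Members, lists, words searched and the olfactory level were chosen with earlier results of these data known. Full values were given for members called at 2-fold or more and for Itga4, Itga5, Itgb1, Itga2b, Itgb3, Tspan33 and the CD-numbered tetraspanins, and up to 4 called genes were named per list. Tln1, Tln2, Fermt3, Adam10, Tpsab1, Cpa3 and Fcer1a were added after their values were seen. A fold was said to rest on background where the lower signal was at or below the olfactory level. The fit was tested on simulated data. Alternatives were quantile normalization, median centring, cyclic loess, a replicate block, a filter at the median mean signal, a robust variance trend, averaging probe sets by gene, fitting every probe set, leaving out each array, Holm's adjustment, and limma's treat at 1.2-fold. Promoters and gene order came from RefSeq tables of GRCm38.p6. Tables and figures were made in Python 3.11.15 with matplotlib 3.10.9, pandas 2.3.3 and numpy 2.4.6.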

Additional observations from a re-analysis of the deposited data

How the results depend on the processing

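The counts of 13 members called higher and 23 called lower in MEL depended on the setting. The lower count was 12 after cyclic loess, 14 after median centring, 13 after quantile normalization and 10 with a test against a 1.2-fold difference. The higher count also fell with that test, to 10 among the 38 members above the olfactory level, which held all 13 higher calls. The counts were 8 and 11 among the 25 members at or above the median mean signal, where fewer genes were tested, and 7 and 8 with Holm's adjustment. Without each array in turn the higher count was 13 throughout and the lower count 15 to 22. In 13 of the 52 members the sign turned under at least 1 setting, and of these Tspan1 alone was called as deposited. After quantile normalization Tspan1 was at 0.00500, Itga2 at 0.0361, Itgb4 at 0.0207, Itgb6 at 0.135, Tspan10 at 0.117 and Tspan31 at 0.00482. After median centring Cd37 was at 0.0504, Itga5 at 0.144, Itgb4 at 0.0816, Itgb6 at 0.119, Tspan10 at 0.123, Tspan31 at 0.0985, Tspan32 at 0.0672 and Tspan4 at 0.105. After cyclic loess Itga2 was at 0.0288, Itga5 at 0.0664, Itga7 at 0.0265, Itgb4 at 0.113, Itgb6 at 0.123, Tspan10 at 0.189, Tspan31 at 0.00494 and Tspan4 at 0.0220. Without 1 array, between leaving out ES-EP replicate A and ES-EP replicate B, Cd37 ran from -0.266 to 0.0696, Itga5 from -0.121 to 0.112, Tspan31 from -0.124 to 0.0232 and Tspan4 from -0.187 to 0.0985. Between leaving out ES-EP replicate B and ES-EP replicate A, Itga1 ran from -0.0124 to 0.0477, Itga10 from -0.0993 to 0.104, Itgb6 from -0.0942 to 0.0338 and Tspan10 from -0.0741 to 0.0222. None of the values of turned sign was called, and the cause was not tested. Deviations of arrays with the same letter correlated over genes at -0.04 between the cell types, so no gene-by-gene pattern shared by a letter was seen. Such a correlation cannot show a shift common to all genes. It also cannot tell whether cultures with the same letter were handled together, which the labels do not say. A replicate block left the counts at 13 and 23, ending the call of Tspan9 (adjusted p = 0.0597) and adding Cd63 (0.0183). Without 1 array the lone culture of a cell type is taken to vary like the other. Low signals limit folds against background, whose sizes are not exact.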
